A study of Homo sapiens with 15 samples.

Results

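The genes described here are 10 regulators that hold the kinase complex mTORC1 in check or act directly above it, taken by symbol from a table of 63241 genes. They are DDIT4 and its relative DDIT4L, the sestrins SESN1, SESN2 and SESN3, the TSC complex subunits TSC1 and TSC2, the inhibitory mTORC1 subunits DEPTOR and AKT1S1, and the GTPase RHEB. DDIT4 was selected on its measured TPM in these libraries, lower with fatty acids and higher with cyanidin-3-rutinoside (C3R), so its values are given as a description with no test. The other 9 were chosen as regulators of the same complex, with earlier results of these data known. RNA was sequenced from 15 cultures labelled HepG2, a hepatoma line, in 5 groups of 3 biological replicates. NC was the blank control, FFA received 500 µM free fatty acids, and the other groups had these fatty acids together with C3R, an anthocyanin pigment, at 25 µM (FCL), 50 µM (FCM) or 100 µM (FCH). The labels give no exposure time, and they do not say which fatty acids were used or whether the blank received a vehicle. Whether the replicates were grown at separate times is also not stated, and p-values cover only the spread among the cultures at hand.

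mTORC1 drives protein and lipid synthesis and restrains autophagy when nutrients and growth factors are plentiful. RHEB, loaded with GTP at the lysosome, activates the kinase, and the TSC complex switches RHEB off. DDIT4, also called REDD1, is a stress-induced protein that acts through the TSC complex, and sestrins restrain mTORC1 when amino acids are scarce. In liver, mTORC1 is known for promoting lipid synthesis downstream of insulin.

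The bases before the transcription starts of DDIT4, SESN2 and RHEB are shown because the results turn on these 3 genes, whose levels differed in different directions. The sequences are the 250 bases before the start of each gene on its own strand, from RefSeq (GRCh38.p14), in which 8 of the 10 members have an entry. Capitals mark ACGTG (the core of the hypoxia response element), TGACG (a cAMP element half-site) and CCAAT (the CCAAT box), on either strand, so that the last reads ATTGG on the reverse strand.
DDIT4 chr10:72273674-72273923 (+ strand): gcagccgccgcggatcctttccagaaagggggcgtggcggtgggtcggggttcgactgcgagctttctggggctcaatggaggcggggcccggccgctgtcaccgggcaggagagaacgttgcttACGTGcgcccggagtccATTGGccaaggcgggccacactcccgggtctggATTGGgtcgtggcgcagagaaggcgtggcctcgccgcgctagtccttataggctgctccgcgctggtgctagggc
SESN2 chr1:28259268-28259517 (+ strand): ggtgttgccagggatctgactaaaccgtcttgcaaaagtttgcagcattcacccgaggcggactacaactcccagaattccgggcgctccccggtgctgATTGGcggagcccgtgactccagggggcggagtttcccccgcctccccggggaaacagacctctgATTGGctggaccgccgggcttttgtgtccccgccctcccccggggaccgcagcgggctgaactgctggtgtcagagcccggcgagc
RHEB chr7:151519896-151520145 (− strand): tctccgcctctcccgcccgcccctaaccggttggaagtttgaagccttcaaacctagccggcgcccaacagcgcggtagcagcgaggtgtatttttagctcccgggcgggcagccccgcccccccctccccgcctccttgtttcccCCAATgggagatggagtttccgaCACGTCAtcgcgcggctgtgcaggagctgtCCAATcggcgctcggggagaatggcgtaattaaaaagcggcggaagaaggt
The DDIT4 window held 1 ACGTG, which begins 125 bases before the start, and 2 CCAAT boxes on the reverse strand at 108 and 75. The SESN2 window held 2 CCAAT boxes on the reverse strand, at 151 and 86, and no ACGTG or TGACG. In the RHEB window ACGTG at 81 and TGACG at 79 overlap on the reverse strand, and CCAAT boxes stand at 104 and 51. TGATGNAA, a core shared by elements that bind ATF4 and its partners, was in none of the 3 windows. Among 35116 RefSeq promoter windows of the same length, 18.5% held ACGTG, 21.2% TGACG, 32% CCAAT and 3.14% TGATGNAA on either strand. These matches describe letters only and say nothing of binding.

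Part of the marker genes of these cultures went against the label. Of 10 hepatocyte markers, 5 were under 1 TPM (a length-normalised share of all transcripts) in every library, among them AFP at 0.13 TPM or less, a gene for which hepatoma lines are known, and ALB reached 1.67 TPM at most. Other markers of the list were detected in every library. APOA1 lay between 6.18 and 14.7 TPM and APOA2 between 4.17 and 17.8 TPM. SERPINA1 lay between 6.95 and 14.2 TPM and TF between 2.71 and 6.07 TPM. The 10 markers summed to between 29.6 and 47.5 TPM. Among markers of other cells, the 6 endothelial genes summed to 0.94 TPM or less. Of 6 stellate cell markers 2, COL1A2 and DCN, were under 1 TPM in every library. COL3A1 stayed at 4.52 TPM or less and PDGFRB at 2.43 TPM or less. COL1A1 lay between 30.8 and 62.8 TPM and ACTA2 between 7.97 and 15.8 TPM. Of 5 bile duct markers 3, EPCAM, SOX9 and CFTR, were under 1 TPM in every library. The duct keratin gene KRT7 lay between 1626 and 2781 TPM while KRT19 stayed at 1.6 TPM or less. Of 6 leukocyte markers 4 were under 1 TPM in every library, with PTPRC at 0.01 TPM or less, but their sum moved with fatty acids through CD68, from between 54.4 and 63.2 TPM in NC to between 143.3 and 211 TPM in FFA. The cells are therefore called cultures, with no cell type. FCM replicate 3 had the lowest array weight, 0.182, and FCM had the lowest correlation between its libraries, 0.966. Other libraries came close, with weights of 0.246 for FCL replicate 2, 0.303 for NC replicate 1 and 0.353 for FCL replicate 1. The lowest correlation within FCL was 0.973. FCH replicate 3 carries a batch adjustment that no label mentions, under which it kept 41.6% of its deviation from the other FCH libraries. This library also had the highest array weight, 17.1. Fits with array weights below therefore lean on an adjusted library, most of all for FCH. Depth is unknown, because TPM do not carry it.

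DDIT4 was an abundant RNA in every culture, between rank 165 and rank 542 among all genes. In NC its level was 677.9, 630.9 and 602 TPM, and in FFA it was 301.8, 362.5 and 265.3 TPM. Every FFA library thus lay below every NC library. With C3R added to the fatty acids, DDIT4 was at 422.8, 375.7 and 447.2 TPM in FCL. FCM held 774.4, 682.3 and 896.3 TPM, and FCH held 533.7, 579.8 and 519.9 TPM. The order of the levels was therefore FCM, NC, FCH, FCL and FFA, with means of 784 ± 107, 637 ± 38.3, 544 ± 31.4, 415 ± 36.3 and 309.8 ± 49.1 TPM (SD, n = 3 each), and no 2 groups overlapped. The gap between the lowest FCM library and the highest NC library was narrow, 682.3 against 677.9 TPM, as was that between the lowest FCL library and the highest FFA library, 375.7 against 362.5 TPM. Both pairs overlapped after median-of-ratios rescaling and after each library's trend over GC content and gene length was removed, and FCM and NC also with the mitochondrial genome's genes left out. After median-of-ratios rescaling FCH overlapped NC as well, with 607.8 TPM in FCH replicate 2 against 603.9 TPM in NC replicate 3. In RNA from whole cultures, fewer cells of a kind and less RNA per cell cannot be told apart.

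**Figure D1:**
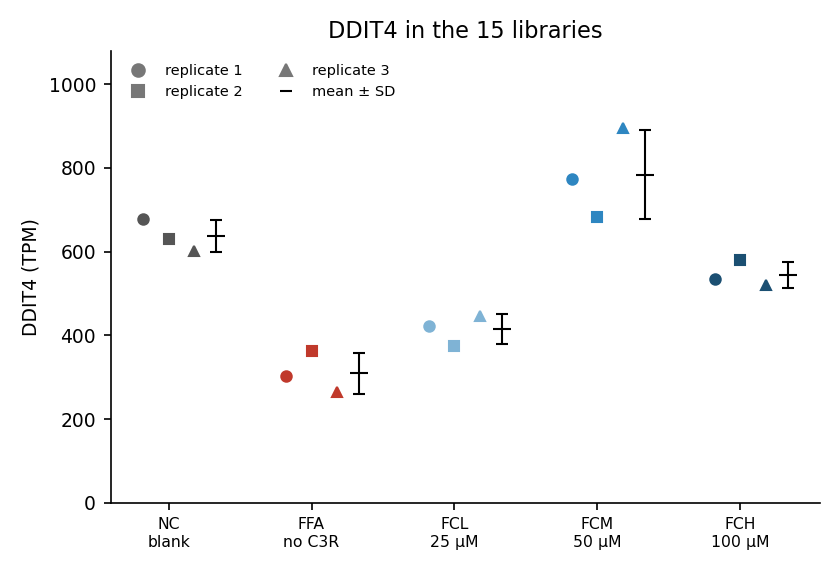
DDIT4 in TPM (vertical axis) in each of the 15 libraries, by group and C3R dose, with the mean ± SD of each group in black. The 3 FFA libraries lie lowest, between 265.3 and 362.5 TPM, and the 3 FCM libraries highest, between 682.3 and 896.3 TPM.

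On the log2(TPM + 1) scale, which understates the changes of genes with low TPM, DDIT4 was 1.05 lower in FFA than in NC (log2 change -1.05, SE 0.13). Relative to FFA it was higher by 0.43 in FCL, by 1.34 in FCM and by 0.82 in FCH, each with an SE of 0.13. Against NC, FCL stood at -0.62, FCM at 0.29 and FCH at -0.23. These comparisons share the FFA or the NC libraries. The levels did not follow the order of the doses, since every FCM library lay above every FCH library. The slope of a line over FFA and the 3 doses was 0.85 per 100 µM (SE 0.29), or 0.42 (SE 0.22) with array weights, and over FCL, FCM and FCH alone it was 0.30 (SE 0.37). Without FCM replicate 3 the FCM mean was 728.3 TPM and the change 1.24 against FFA and 0.19 against NC. FCM replicate 3 and all of FCH, numbered 12 to 15 in the labels, were also given a term of their own. As every FCH library carries this term, only FCM replicate 3 against the other FCM libraries sets its size. The change in FCH was then 0.52 (SE 0.20) against FFA and -0.53 against NC. These values carry the deviation of FCM replicate 3 onto FCH and are not a batch-corrected change. With the adjustment of FCH replicate 3 undone, its level was 475.7 TPM, still above the highest FCL library, and the change in FCH was 0.78. DDIT4 has a GC content of 58.1%, against a median of 50.1% over the tested genes. Libraries differed in how GC-rich genes stood: over the tested genes, Spearman's rho between GC content and a library's departure from the average library was -0.406 to -0.205 in FFA, 0.301 to 0.562 in FCM and -0.491 to -0.0178 in NC. After removal of that trend the changes of DDIT4 were -1.07 in FFA against NC and 1.25 and 0.82 in FCM and FCH against FFA, close to those above, while FCM against NC stood at 0.18. The annotation places an antisense gene, DDIT4-AS1, over 847 exonic bases of DDIT4. The library kit keeps strand, but whether counting used it is not given in the sources used here, so reads of the antisense gene could be part of these values.

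SESN2, the sestrin that binds leucine, rose with fatty acids. It was at 9.3, 9.99 and 8.4 TPM in NC and at 15.7, 12.7 and 21 TPM in FFA. Its log2 change was 0.75 (SE 0.17, adjusted p = 0.0139 by limma), and every FFA library lay above every NC library, in the comparison in which DDIT4 was lower. The 3 C3R groups held 16.8, 17.8 and 18.2 TPM (FCL), 15.5, 15.5 and 20.3 TPM (FCM) and 13.9, 11.3 and 11.8 TPM (FCH). All 12 libraries given fatty acids lay above the 3 NC libraries, whose highest value was 9.99 TPM. Against NC, SESN2 rose by 0.87 in FCL (adjusted p = 0.00528) and by 0.81 in FCM (0.00708, or 0.69 and 0.0302 without FCM replicate 3), and in FCH the change was 0.38 (0.223). Against FFA the changes were 0.12, 0.07 and -0.37 in FCL, FCM and FCH, with adjusted p-values of 0.925, 0.867 and 0.325 by limma. The call in FFA was lost without FFA replicate 3 (0.56, adjusted p = 0.0826) and without NC replicate 3 (0.69, 0.0551), and the call in FCM without libraries 12 to 15 (0.0698). With only NC and FFA in the fit the call in FFA was also lost (0.0597). With array weights SESN2 was called in FCH, higher than in NC (0.30, 0.0372) and lower than in FFA (-0.41, 0.0209).

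SESN1 and SESN3, the other sestrins, were scarce. SESN1, a target of p53, lay between 0.55 and 1.94 TPM, reached 1 TPM in 4 libraries and passed the filter of 1 TPM in at least 3 libraries through these. SESN3, a target of FOXO factors, stayed at 0.28 TPM or less. DDIT4L, the close relative of DDIT4, was listed at 0 TPM in every library but FCL replicate 2, where it was at 0.03 TPM. SESN1 was called in no comparison, while SESN3 and DDIT4L did not pass the filter and were not tested. Per-length levels put DDIT4 and SESN2 far above their relatives.

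RHEB, the activator of mTORC1, rose with fatty acids. It was at 53.9, 56.4 and 61.5 TPM in NC and at 95.8, 76 and 99.3 TPM in FFA, without overlap. The log2 change was 0.64 (SE 0.16, adjusted p = 0.0206 by limma). With C3R, FCL held 83.2, 99.5 and 66.6 TPM, FCM 69.7, 75.4 and 54.1 TPM and FCH 58.9, 60.6 and 59 TPM. In the deposited values FCM and FCH lay below the lowest FFA library, and the FCH libraries lay within the range of NC, while FCL overlapped FFA. The gap between FCM and FFA was narrow, 75.4 TPM in FCM replicate 2 against 76 TPM in FFA replicate 2. The median-of-ratios factors of these libraries, 0.9226 and 1.005, would reverse their order. The changes against FFA did not pass the test: -0.13 in FCL (adjusted p = 0.914), -0.44 in FCM (0.135) and -0.58 in FCH (SE 0.16, 0.109). With only FFA and FCH in the fit, the last had an adjusted p of 0.0304, and with array weights RHEB was called lower in FCM (-0.37, 0.0424) and in FCH (-0.61, 0.000875). The dose slope was -0.61 per 100 µM (SE 0.16, adjusted p = 0.0886 by limma, 0.0478 without FCM replicate 3 and 0.000879 with array weights). The rise in FFA lost its call without NC replicate 1 (0.0843), NC replicate 2 (0.0661), FFA replicate 1 (0.095) or FFA replicate 3 (0.102), and after quantile normalisation (0.51, 0.0821), median-of-ratios rescaling (0.53, 0.0726) or with no filter (0.0545). FCL against NC stood at 0.51 (adjusted p = 0.052), which was 0.0472 without FFA replicate 2, 0.0244 without FCL replicate 3, 0.0465 without FCM replicate 2 and 0.0207 without FCM replicate 3. RHEB in FCL was also called higher than in NC with a minimum mean of 5 TPM (0.0352), with the term for libraries 12 to 15 (0.0207) and with the GC and length trend removed (0.46, 0.0293).

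TSC2, the catalytic subunit of the TSC complex, was called higher than in NC in FCL and FCM. It was at 26.1, 26.5 and 24.5 TPM in NC and at 33.4, 32.2 and 30.2 TPM in FFA, a log2 change of 0.30 that did not pass the test (adjusted p = 0.317 by limma). FCL held 38, 39.8 and 37.8 TPM, FCM 34.1, 30.7 and 55.8 TPM and FCH 35.4, 30.6 and 32.3 TPM. Each of these libraries lay above every NC library, and 55.8 TPM in FCM replicate 3 stood far above the rest. TSC2 rose against NC by 0.57 in FCL (adjusted p = 0.0458) and by 0.58 in FCM (0.0345). Without FCM replicate 3 the change in FCM was 0.32 (0.0777), and the adjusted p of the change in FCH (0.34) went from 0.271 to 0.0369 (0.00676 with array weights). The call in FCL was lost when any single library other than FCM replicates 2 and 3 was left out, with adjusted p-values between 0.0504 and 0.128. That in FCM was also lost without NC replicate 1, 2 or 3 or FCH replicate 3, with values between 0.0516 and 0.115. With no filter neither was called (0.102 in FCL and 0.0813 in FCM), and that in FCM was also lost with only NC and FCM in the fit (0.165) or with the term for libraries 12 to 15 (0.32, 0.0764). TSC2 shares exonic bases on the opposite strand with NTHL1 (402 bases) and PKD1 (778 bases). PKD1 was at 47.3, 59 and 49.2 TPM in NC and reached 109.6 TPM in FCM replicate 3, the library in which TSC2 was also highest, and whether their reads were shared was not tested.

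TSC1, the partner that stabilises TSC2, lay between 4.88 and 9.33 TPM and was called in no comparison, with log2 changes between -0.19 and 0.14. AKT1S1, also known as PRAS40, an inhibitory subunit released on insulin signalling, was abundant, between 65.9 and 107.5 TPM, and its changes lay between 0.02 and 0.20 with no call. It shares exonic bases with TBC1D17 on the opposite strand, so its level is uncertain. DEPTOR, the other inhibitory subunit, was at 1.31, 1.97 and 2.37 TPM in NC and at 1.2, 1.23 and 1.24 TPM in FFA. The FFA libraries lay just below the lowest NC library, and the log2 change of -0.36 did not pass the test (adjusted p = 0.372 by limma). With array weights DEPTOR was called lower than in NC in FCM (-0.61, adjusted p = 0.00599) and in FCH (-0.31, 0.0413), against -0.35 and -0.19 with no call (0.297 and 0.663) with equal weights.

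**Figure D2:**
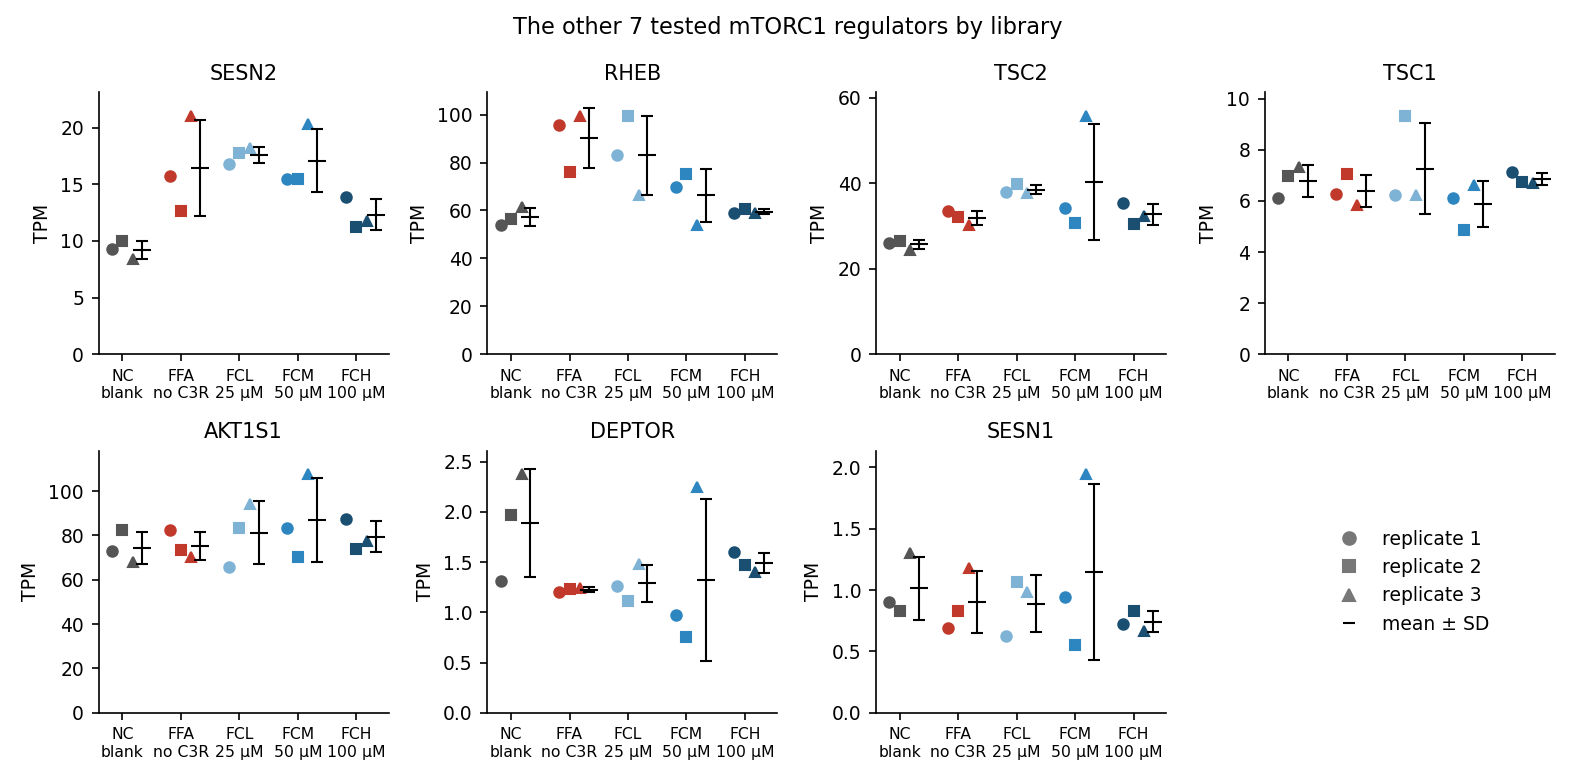
Levels in TPM (vertical axes, each from 0) of the other 7 tested members in each library, by group and C3R dose, with mean ± SD in black. SESN2 and RHEB are higher in FFA than in NC, RHEB in FCH lies back in the range of NC, and FCM replicate 3 (triangle) is the highest FCM library for all of these genes but RHEB, for which it is the lowest.

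Counted over the 7 tested members other than DDIT4, 2 were called higher in FFA than in NC and none lower, where 7.37% of 12950 tested genes were called in either direction and 5.47% higher. Against FFA no member was called in FCL, where 0.00772% of genes were called, in FCM (1.9%) or in FCH (0.193%), and none had a called dose slope (0.371%). At an unadjusted p under 0.05 by limma the counts of members were 0, 1, 2 and 2 in these 4 comparisons, beside 667, 2477, 1946 and 2016 genes. Against NC, 2 members were called higher in FCL (9.07% of genes, 6.51% higher) and 2 in FCM (13%, 6.34% higher), namely SESN2 and TSC2 in both, and 0 in FCH (5%), where 1 had an unadjusted p under 0.05. The median log2 change of the 7 was 0.02 in FFA against NC and 0.07 in FCM against FFA, beside 0.06 and -0.07 over all tested genes.

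**Figure D3:**
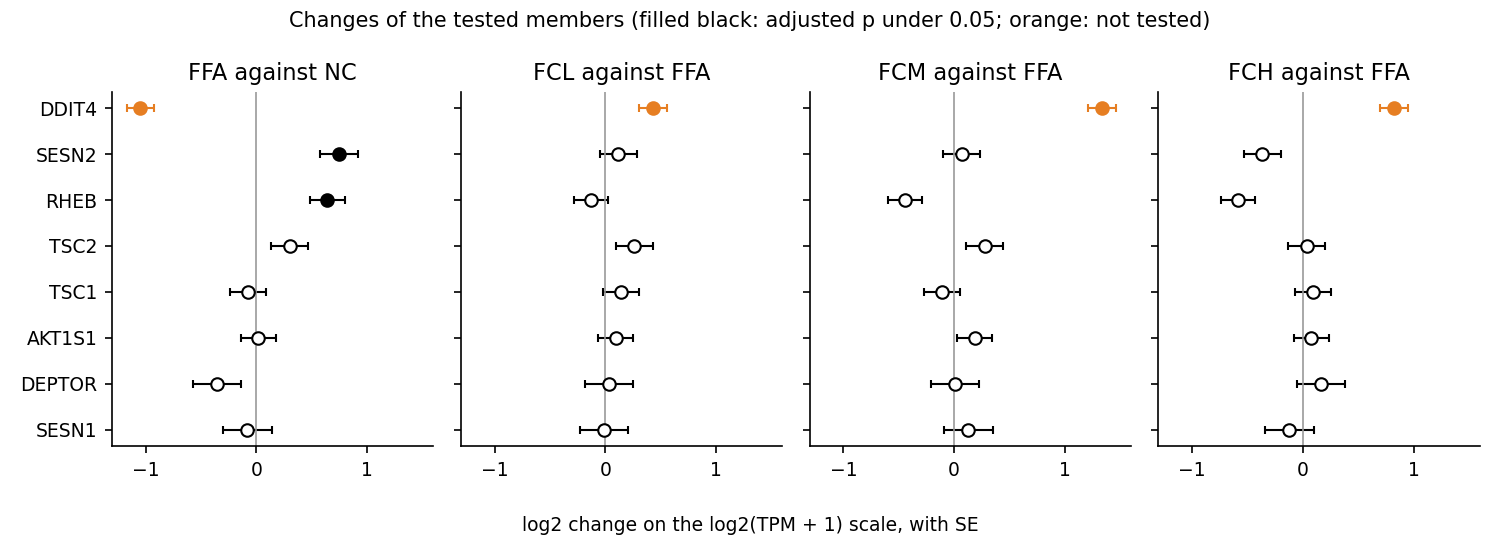
Log2 changes on the log2(TPM + 1) scale (horizontal axis, bars are SE) of DDIT4 and the 7 other tested members in 4 comparisons. Filled black points (SESN2 and RHEB in FFA against NC) had an adjusted p under 0.05, open points did not, and DDIT4, in orange, was not tested. DDIT4 lies at -1.05 in FFA against NC and at 1.34 in FCM against FFA, where RHEB lies at -0.44.

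Across the 15 libraries RHEB was the member whose level ran most nearly opposite to DDIT4, with Pearson's r of -0.797 and Spearman's rho of -0.704 on the log2(TPM + 1) scale. The libraries share their groups, and DDIT4 was chosen for its differences between these groups, so r is a description. With group means removed it was -0.868, with each library's GC and length trend taken out -0.723, and without the 2 libraries farthest from the median of DDIT4, FFA replicates 1 and 3, it was -0.648. A value without FCM replicate 3, which had the highest DDIT4 and the lowest RHEB of FCM, is not given. Over all other tested genes the r with DDIT4, with group means kept, had a median of -0.145, with 5% of genes below -0.656. The value with group means removed has no such background here. SESN2 with DDIT4 stood at -0.329. Among the other pairs of members the largest positive values were 0.758 for SESN2 with TSC2 and 0.7 for TSC2 with AKT1S1. These 3 genes have a GC content of 59.5%, 60.5% and 60.4%, against a median of 50.1% over the tested genes, and with the GC trend removed the values were 0.599 and -0.103. The order of the pairs depended on that trend: with it removed the largest positive value among these pairs was 0.822 for SESN2 with RHEB (0.567 before), and the most negative was -0.809 for DEPTOR with RHEB (-0.579 before).

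**Figure D4:**
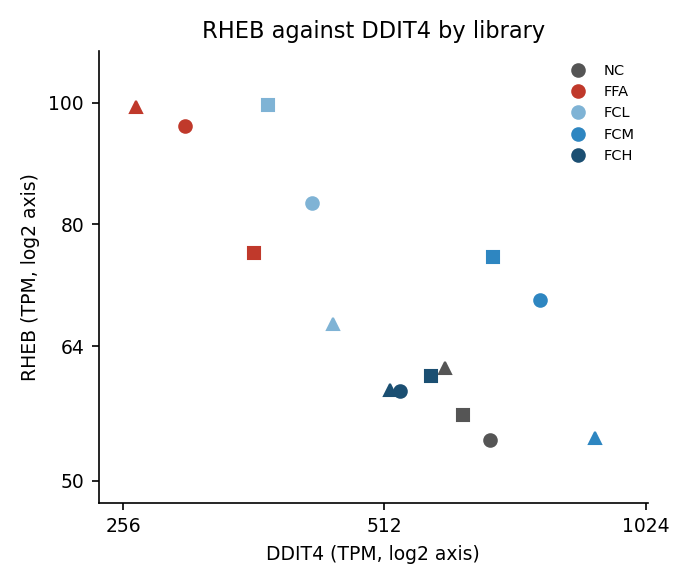
RHEB (vertical axis) against DDIT4 (horizontal axis) in TPM on log2 axes, 1 point per library, with colours for the 5 groups and circles, squares and triangles for replicates 1, 2 and 3. The FFA libraries lie at the upper left and the NC and FCH libraries at the lower right; Pearson's r over the 15 libraries was -0.797.

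The genes whose levels followed DDIT4 most closely over the 15 libraries, by Pearson's r, were MRPL55, which encodes a mitochondrial ribosomal protein (0.89), LINC02323 (0.861), NOL3, an inhibitor of apoptosis (0.856), SERPINF2, the plasmin inhibitor (0.844), and ENDOV, an endonuclease (0.842). They were followed by GNAS-AS1 and MEA1 (0.823 each), SURF2 (0.816), PIN4 (0.809) and MRPL20-AS1 (0.798). MRPL55 went from a mean of 120.1 TPM in NC to 97.8 TPM in FFA and 124.8 TPM in FCM, a far narrower span than that of DDIT4. The most nearly opposite genes were OSMR, the receptor subunit for oncostatin M (-0.936), PHTF2 (-0.921), the kinesin KIF1B (-0.916), and the Rab GTPases RAB9A (-0.912) and RAB33B (-0.9). The mean level of OSMR was 24.4 TPM in NC, 53.1 TPM in FFA and 26 TPM in FCM. None of the 15 is in the lists around mTORC1 described next. The libraries share their groups and the GC trend, so likeness is a description over 15 libraries.

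Around the members, 136 genes in 11 lists cover the pathway and the factors known to induce DDIT4, of which 123 were tested. With fatty acids 18 of these were called higher and none lower, and all 18 are named here. The counts were 19 higher and 3 lower after quantile normalisation, 17 and 2 after median-of-ratios rescaling, 19 and 6 with the GC trend removed, 25 and 4 with array weights and between 13 and 22 higher when single libraries were left out. Over all tested genes 708 were called higher and 247 lower, against 815 and 624, 723 and 522, and 1051 and 808 under these 3 scalings and 1424 and 801 with array weights. Beside these rises, CD68 and CSF1R rose among the 6 leukocyte markers while PTPRC stayed at or near 0.

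DDIT4 is known as a target of ATF4, the transcription factor of the integrated stress response. The ATF4 list holds ATF4 itself, targets of it and other stress genes such as XBP1. Of its 15 genes 7 rose in FFA and none fell, with a median log2 change of 0.59 beside 0.06 over all genes. ATF4 itself was at 305.9 ± 28.1 TPM in NC and 464.2 ± 67.2 TPM in FFA, a rise of 0.59 (SE 0.11, adjusted p = 0.00397 by limma). ATF3 rose by 2.11, from 31.4 ± 4.6 to 139.6 ± 26.3 TPM, and PPP1R15A, which restores translation, by 1.49. TRIB3, an inhibitor of AKT, rose by 0.86, from 116.8 ± 12.8 to 211.7 ± 9.16 TPM. XBP1, CEBPB and VLDLR rose by 0.83, 0.79 and 1.02. DDIT3, at 1.36, did not pass (adjusted p = 0.103), and CHAC1, another target, stood at -0.26 (0.61). Against FFA no gene of the list was called in FCL, FCM or FCH, and ATF4 stood at -0.18 in FCM (adjusted p = 0.414).

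The hypoxia list, a second known route to DDIT4, had 3 of 15 genes higher in FFA: the peptide hormone gene ADM by 1.46, NDRG1 by 1.01 and the angiogenic factor VEGFA by 0.82. In FCM against FFA its member SLC2A1, the glucose transporter GLUT1, rose. It was at 205.2, 227.4 and 213.7 TPM in FFA and at 333.7, 346.9 and 480.7 TPM in FCM, without overlap, and the rise was 0.82 on the log2 scale (SE 0.15, adjusted p = 0.0206 by limma). FCH held 327.7, 403.3 and 309.9 TPM, also above FFA (0.68, 0.075), and FCL overlapped FFA. Without FCM replicate 3 the change in FCM was 0.66 (0.0637). In NC it held 158.9, 209 and 204.8 TPM, overlapping FFA. HIF1A, the oxygen-regulated factor itself, stood at -1.21 in FCM against FFA (adjusted p = 0.0564). It was at 12.2, 7.32 and 10.8 TPM in FFA and at 2.91, 2.26 and 7.1 TPM in FCM. FCM replicate 3 thus lay just below the lowest FFA library.

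In the p53 list 2 of 12 rose in FFA: the cell cycle inhibitor CDKN1A by 1.42, from 102.3 ± 8.41 to 275.8 ± 24.6 TPM, and the stress cytokine GDF15 by 0.84. In the glucocorticoid and FOXO list 1 of 9 rose, the clock gene PER1, by 1.70. No gene of the list around TXNIP and the turnover of DDIT4 was called in FFA or, relative to FFA, with C3R. TXNIP was at 0.22 in FFA against NC and at -0.79 in FCM against FFA (adjusted p = 0.151), and the ubiquitin ligase gene CUL4A at -0.17 and -0.54 (0.0625). CUL4A fell against NC in FCM (-0.70, adjusted p = 0.00662) and in FCH (-0.60, 0.0259).

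Upstream of the TSC complex, 2 of 11 genes rose in FFA: IRS2, an adaptor of the insulin receptor, by 1.52, from 5.49 ± 1.42 to 17.7 ± 4.4 TPM, and the receptor-binding adaptor GRB10 by 0.58. Of the Rag GTPases, Ragulator and folliculin genes, which bring mTORC1 to the lysosome, 1 of 10 rose, RRAGA, by 0.73. Of the mTORC1 effectors 2 of 15 rose, the lysosomal factor TFE3 by 0.82 and the autophagy kinase gene ULK1 by 0.84. None of 8 tested mTORC1 and mTORC2 subunits, none of 15 GATOR, KICSTOR and amino acid sensor genes and none of 8 AMPK and LKB1 genes was called, and MTOR itself stood at 0.29 (adjusted p = 0.524). Of the 18 genes, 12 were called in FFA against NC under all 28 alternatives run, and GRB10 was called under 20, NDRG1 under 22, VEGFA under 23, VLDLR under 25 and RRAGA and CEBPB under 26.

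With C3R, relative to FFA, the 11 lists held 2 calls. FCL and FCH had no call among 123 genes, and FCM had SLC2A1 higher and PDCD4, a translation inhibitor degraded after mTORC1 signalling, lower. PDCD4 was at 19.6, 18 and 19.3 TPM in FFA, 6.82, 10.4 and 9.46 TPM in FCM and 18.7, 22 and 20.5 TPM in FCH. Every FCM library lay below every FFA and FCH library, and the log2 change against FFA was -1.03 (SE 0.21, adjusted p = 0.0298 by limma, and -1.08 with 0.0683 without FCM replicate 3). No call among the 123 genes remained in FCM without FFA replicate 1, FFA replicate 3 or FCM replicate 2, while 1 higher and 7 lower were called without FFA replicate 2, 2 and 7 without FCL replicate 2 and 1 and 6 without NC replicate 1. Over all tested genes 0.0695% were called higher and 1.83% lower in FCM against FFA. These counts of list genes depended on the setting. For FCM they were 2 higher and 17 lower with array weights, 3 and 6 after median-of-ratios rescaling, 3 and 2 after quantile normalisation, 1 and 4 with a pseudocount of 0.1, 1 and 3 with a minimum mean of 5 TPM, 0 and 1 with the term for libraries 12 to 15, 1 and 0 with the GC trend removed, and 0 and 0 with no filter, with only FFA and FCM in the fit or without libraries 12 to 15. Of 28 alternatives, SLC2A1 was called in FCM under 20, with changes between 0.66 and 0.92. PDCD4 was called under 17, with changes between -1.2 and -0.6. For FCH the counts of list genes were 5 higher and 25 lower with array weights, 2 and 4 with only FFA and FCH in the fit, 0 and 2 without FFA replicate 2 and at most 1 and 1 under the other settings. With array weights 121 of all tested genes were called higher and 1760 lower in FCM, and 726 and 1929 in FCH. Against NC the 3 C3R groups had 21, 20 and 12 genes of the lists higher and 0, 3 and 1 lower (FCL, FCM and FCH), of 123 tested. Over all tested genes 6.51%, 6.34% and 3.02% were called higher and 2.56%, 6.7% and 1.98% lower in these comparisons. In FCL the count higher was 12, 14 and 14 without NC replicate 1, NC replicate 2 and FCL replicate 2, in FCH it was 8 without FCH replicate 1 or NC replicate 2 and 7 without FCH replicate 2 or NC replicate 1, and in FCM the split was 23 and 10 after median-of-ratios rescaling. With array weights the counts were 27 higher and 3 lower in FCL, 22 and 19 in FCM and 27 and 17 in FCH, beside 1664 and 1450, 1153 and 2745, and 1853 and 2509 over all tested genes. With only the compared groups in the fit they were 11 and 0, 14 and 0, and 20 and 2. With no filter FCL had 14 and 0 and FCH 8 and 1. With the term for libraries 12 to 15, FCH had 3 and 0, in a fit that carries the deviation of FCM replicate 3 onto FCH. Without these libraries FCM had 12 and 0.

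**Figure D5:**
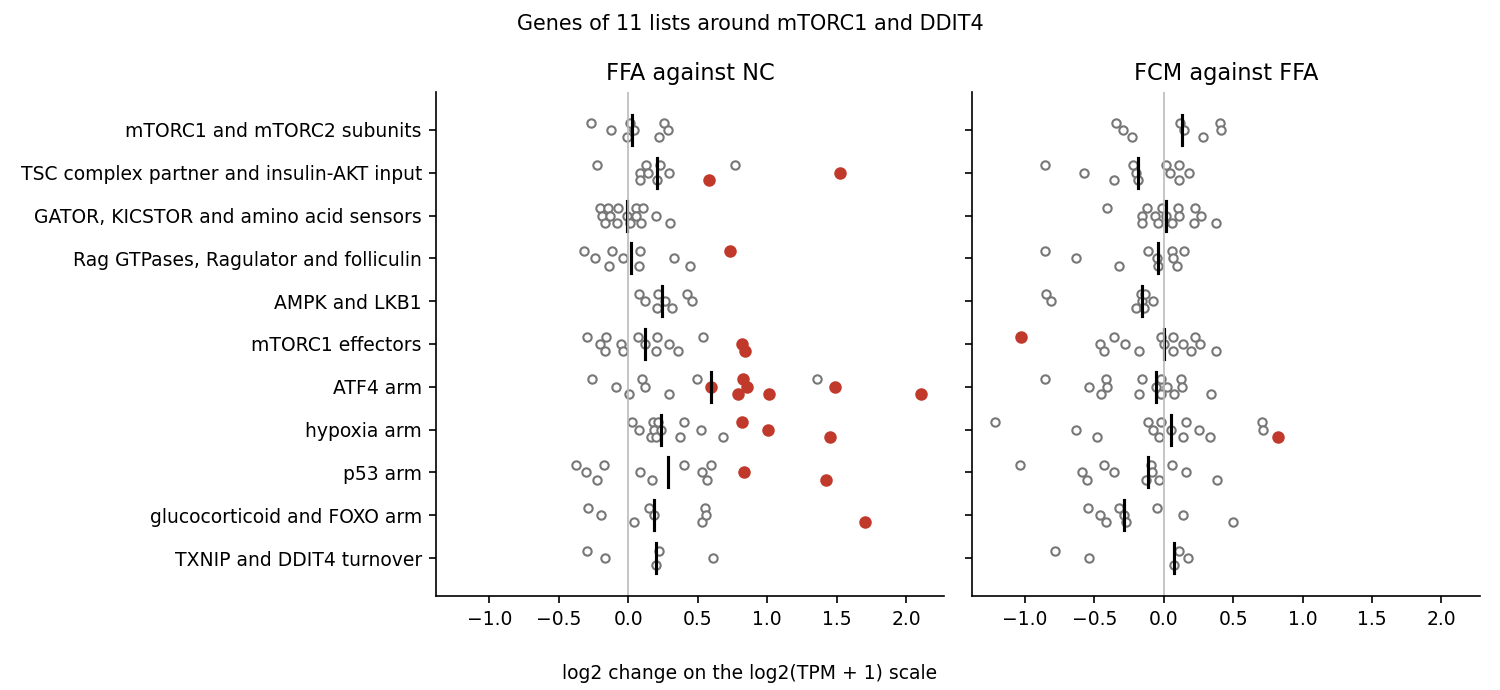
Log2 change (horizontal axis) of each tested gene in the 11 lists (rows) for FFA against NC (left) and FCM against FFA (right); red points had an adjusted p under 0.05 and black bars are list medians. The left panel holds 18 red points, all to the right of 0, with 7 in the ATF4 list, and the right panel holds SLC2A1 at 0.82 and PDCD4 at -1.03.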

How the data were processed

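Per the labels, the authors selected messenger RNA on oligo(dT) beads, made stranded libraries, aligned reads with HiSat2 to an Ensembl human genome and quantified genes with RSEM; the sources used here name no versions, build or annotation release, so no coordinates from the files are printed. The deposited values are TPM. They also carry a mean-only batch adjustment of FCH replicate 3 that no label states, in 12775 genes, recovered except for 15 genes listed at 0 in that library.

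Genes with at least 1 TPM in at least 3 libraries (12950) entered 1 limma model (limma 3.58.1, R 4.3.3) on log2(TPM + 1) with a mean per group over all 15 libraries and no covariate. Tests were two-sided with a trended empirical Bayes prior and Benjamini-Hochberg adjustment across the 12950 genes in each comparison; a call is an adjusted p under 0.05. The dose slope used the 12 libraries given fatty acids. The members, lists, comparisons and the grouping of libraries 12 to 15 were chosen with earlier results of these data known. Genes named from the lists are the called ones with the smallest p, at most 4 per list and comparison (7 for ATF4 in FFA against NC), list genes that stand out as known regulators, chosen after their values were seen, and the 10 genes most like and 5 most unlike DDIT4. GC content and length come from the longest transcript in GENCODE 29 (96.4% of tested genes), as do overlaps.

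Other settings tried were 2 rescalings, a pseudocount of 0.1, a filter at a mean of 5 TPM or none, mitochondrial genes left out, a replicate block, compared groups alone, array weights, a term for libraries 12 to 15, the adjustment undone, a GC and length trend removed, dose as a rank and each library left out; leaving out libraries 12 to 15 was added after seeing the data.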

Additional observations from a re-analysis of the deposited data

How the results depend on the processing

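The number of members called, of 7, depended on the setting, and no called change reversed. For FFA against NC it was 2, and 1 with no filter, median-of-ratios rescaling, quantile normalisation or the compared groups alone; leaving out single libraries gave 0 to 2. For FCL against NC it was 2, 1 with no filter, and 3 with a minimum mean of 5 TPM, a term for libraries 12 to 15 or the GC and length trend removed; leaving out single libraries gave 1 to 3. For FCM against NC it was 2, and 1 with no filter, the compared groups alone or a term for libraries 12 to 15, and 0 without those libraries; leaving out single libraries gave 1 to 2. For FCH against NC and the dose slope it was 0, and leaving out single libraries gave 0 to 1. With array weights, which gave FCH replicate 3 a weight of 17.1, it was 1 for FCM against FFA, 2 for FCH against FFA, 3 for FCM against NC, 3 for FCH against NC and 2 for the dose slope. With the compared groups alone it was 1 for FCH against FFA. The adjustment of FCH replicate 3 can make the spread within FCH too small.

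With a replicate block, 1 member was called for FCL against NC and 1 for FCM against NC, as TSC2 reached an adjusted p of 0.0674 and 0.0519 by limma; no other call of a member changed. Libraries that share only a number did not deviate together (mean r -0.0466 over 30 pairs, against 0.0233 over 60 pairs with different numbers), so the numbers were not taken to pair the cultures.

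With the mitochondrial genome's genes left out, the remaining genes were rescaled to the same total, and DDIT4 was higher than as deposited in every group. It stood at 719.8 TPM in NC, 340.4 TPM in FFA, 461.9 TPM in FCL, 856.6 TPM in FCM and 605.7 TPM in FCH. The shift passed 1 SD in NC, FCL and FCH. Under the other rescalings its group means moved by less than 1 SD. Of 1462 values of members not called in either setting, 87 differed in sign from the reported value. What limits low genes such as SESN1 and DEPTOR is that depth is unknown.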
